A study of Nannochloropsis oceanica with 10 samples.

Results

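The *hlr1* mutant of the oleaginous alga *Nannochloropsis oceanica* IMET1 was compared with itself after 6 h and after 96 h of high light. All libraries that the sample labels assign to *hlr1* at these times were taken, 3 at 6 h and 3 at 96 h, which is 6 of the 30 mRNA-Seq libraries of the study. The study followed the parent strain (WT) and *hlr1* from dark-kept cells through 1, 6, 96 and 144 h of strong light, and took 3 independent biological samples per strain and time. *hlr1* carries 1 selection cassette, inserted in an exon of *HLR1* (g4928), a gene for a chlorophyll-binding light-harvesting protein of photosystem I, and it is 1 clone from an insertion library. Both groups therefore carry the same insertion, and they differ in the time in high light. Per the labels, cells from mid-logarithmic cultures were inoculated in equal numbers, kept in the dark overnight and moved to continuous light with a photon flux of 200 μmol per square metre and second, at a temperature of 25 °C. The labels give a flux of 50 μmol with 12 h of light and 12 h of darkness for the cultures before that, where the methods give continuous light. No culture was kept in low light for 96 h alongside, so time in high light, age and density of the culture, and hour of sampling cannot be told apart.

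In light, photosynthesis supplies a unicellular alga with the carbon for growth, cell division and storage, and the antenna that collects the light is adjusted to its strength. The wall of *Nannochloropsis* contains cellulose, its main antenna is the violaxanthin-chlorophyll *a* protein VCP, and surplus carbon is stored as triacylglycerol. DNA replication and mitosis use gene sets that most eukaryotes transcribe at set phases of the cycle. In RNA from a whole culture, fewer cells in a given phase and less RNA in each cell cannot be told apart.

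The 6 libraries held 6317835 to 6872637 counted reads, and 9895 to 9939 genes had a read at 6 h against 10167 to 10182 at 96 h. Replicates resembled each other closely, with a Pearson correlation across genes of 0.983 to 0.99 between the log2 values of libraries of the same time, and every pair differed by more than sampling noise (chi-square of 3.41 to 7.97 per gene, where sampling alone gives about 1). Levels are in CPM, the counts of a gene scaled to a common library size, after TMM scaling, and gene names are the best matches that the authors' tables give, mostly to proteins of other organisms. CPM is not corrected for gene length, so levels are compared between times and not between genes. A gene was called where edgeR's quasi-likelihood test gave an adjusted p under 0.05 over all genes tested and the fold change exceeded 2.

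*HLR1* itself was checked first. Its level in *hlr1* was 573.9, 593.9 and 589.4 CPM at 6 h and 747.6, 719.2 and 714.1 CPM at 96 h. All 96 h libraries lay above all 6 h libraries, and the difference was a log2 fold change of 0.31 (SE 0.062, adjusted p = 0.000141), too small for a call. In WT, on the scale of the fit over both strains, *HLR1* was 1870, 1828 and 1710 CPM at 6 h and 925.1, 878.8 and 877.8 CPM at 96 h. Reads were thus still counted at the gene (scaffold 145:243338-249749, plus strand) in the mutant, at a level below that of WT at both times. A count over the whole gene does not show whether a transcript crosses the cassette. The domain listed for this gene model is ArfGap, not the chlorophyll-binding domain listed for the main antenna gene g2383. How much of the count came from the light-harvesting coding part was not tested.

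Of 9778 genes tested, 932 (9.53%) were called higher at 96 h than at 6 h in *hlr1* and 420 (4.3%) were called lower, together 13.8%. At any fold, 53.2% of the genes had an adjusted p under 0.05, 27.9% of all in the higher and 25.4% in the lower direction, and in 59.4% the libraries of the 2 times did not overlap. The median log2 fold change over all genes was 0.0087. The rises were the larger changes. Over 4-fold, 564 genes (5.77%) were higher and 42 (0.43%) lower. This split depended on the reference: set relative to the actin gene g3056, whose own level went from 86.3, 80.9 and 78.2 to 65.4, 63.8 and 69.2 CPM, the median of all genes was 0.31, and 1345 genes were called higher against 208 lower, so that 86.6% of the calls were higher instead of 68.9%. Changes are given relative to all genes below. With all 30 libraries in 1 fit, whose spread between replicates was larger, 485 genes were called higher and 52 lower.

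**Figure D1:**
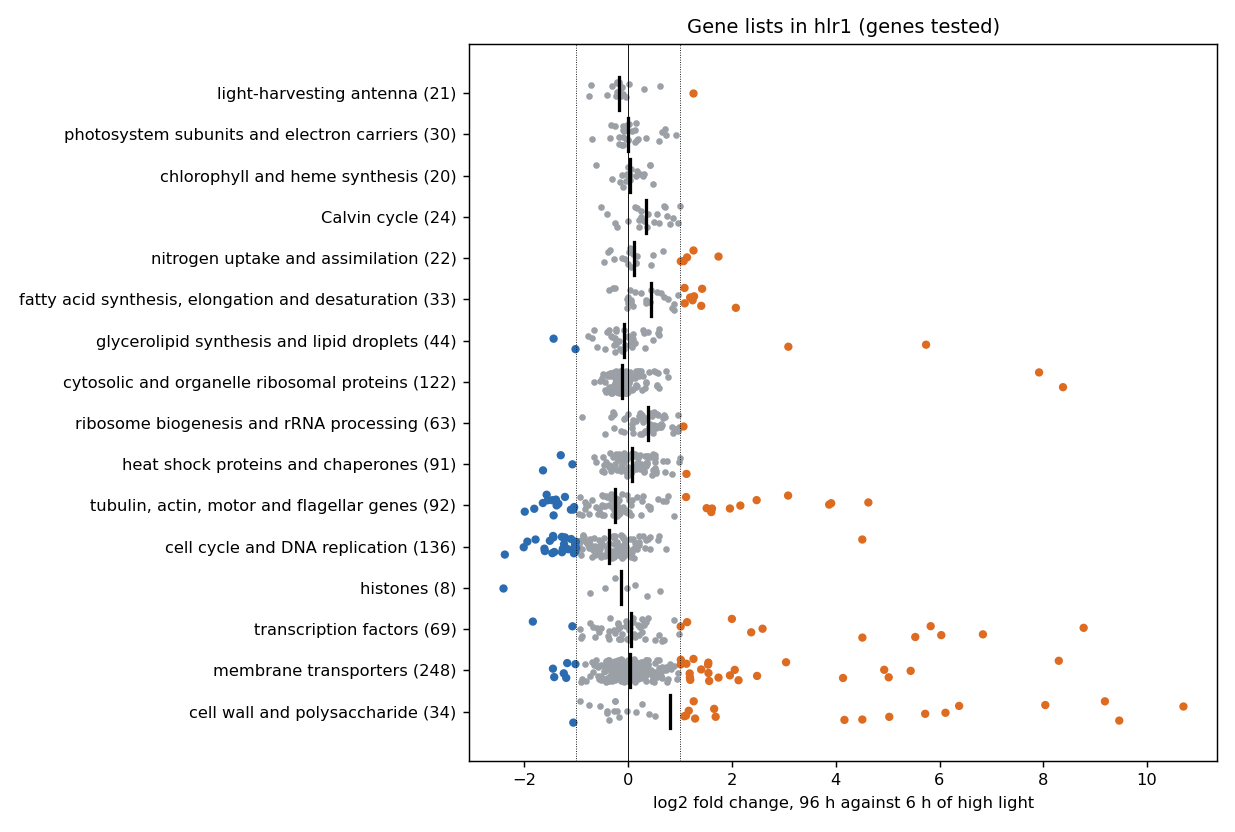
Log2 fold change in *hlr1* at 96 h against 6 h (horizontal axis) for every tested gene of 16 gene lists, with the number tested in parentheses. Orange and blue points are genes called higher and lower, grey points the others, black bars the list medians and dotted lines a 2-fold change. Of the lists shown, the cell wall list has the highest median, 0.80, and the cell cycle list the lowest, -0.38. The fitted values of genes at or near 0 counts at 6 h depend on the model's prior count.

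Genes for wall polysaccharides were a group with many rises. Of 34 tested genes described as cellulose synthases, cellulases, glucanases and related enzymes, 17 were called higher and 1 lower, and the list median was 0.80. Among all genes 9.53% and 4.3% were called in these directions. At any fold, 18 of the 34 had an adjusted p under 0.05 in the higher and 11 in the lower direction. Over all genes, 27.9% and 25.4% did, so the list also held small falls. The cellulose synthase gene g6926, whose product polymerises glucose into cellulose, was at 8.10, 7.76 and 4.23 CPM at 6 h and at 226, 223 and 209 CPM at 96 h. The 2 times lay far apart in all libraries, with a log2 fold change of 5.03 (SE 0.13, adjusted p = 2.08e-21). The other cellulose synthase genes also rose, by 6.38 (g4066), 1.69 (g5048) and 1.17 (g6674) on the log2 scale.

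Genes for enzymes that cut cellulose were among the rises too. The β-endoglucanase gene g6365 (scaffold 232:17907-21661, minus strand) had no read in any 6 h library and 27.7, 35.1 and 31.9 CPM at 96 h, which was at least 209-fold higher, taking 3 counts over the 6 h group as the limit. Another endoglucanase gene, g8394, had 1 read in all 6 h libraries together and 45.5 to 51.7 CPM at 96 h, a ratio of 971 with a 95% interval of 174 to 38400 that covers counting error only. The exoglucanase gene g2166, whose product releases cellobiose from chain ends, went from 3.12, 2.05 and 4.98 to 192, 171 and 174 CPM, a log2 fold change of 5.72 (SE 0.16, adjusted p = 4.17e-21). No 6 h library came near the 96 h libraries in any of these genes. The cellulase gene g3258 rose by 6.11 on the log2 scale. The list holds several genes with the same description, and whether reads were shared between near-identical copies was not tested.

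Ranking by fitted log2 fold change favours genes with few or no reads at 6 h. The 12 largest rises among genes with an informative description were all of genes at or near 0 at 6 h. They included g6743, a tubby-like protein, at 0 in all 6 h libraries and at 28.1, 26.7 and 28.0 CPM at 96 h (at least 183-fold higher). A glycosyltransferase of family GT4 (g1505, at least 114-fold), a magnesium and cobalt transporter (g6932, at least 101-fold) and an aspartyl protease (g7858, at least 90.5-fold) followed. An alcohol acetyltransferase (g10193), an ankyrin repeat protein (g7868), a subtilisin-like proprotein convertase (g996), a Barwin-related endoglucanase (g384), an acyltransferase (g6583) and an *N*-acetylglucosaminyltransferase of glycoproteins (g3152) were at least 69.1-fold to 87.2-fold higher. In all, 140 of the genes called higher had at most 3 reads over the 6 h libraries and 56 had none. For those 56 the limits ran from 14.4-fold to 350-fold, with a median of 38.9-fold.

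**Figure D2:**
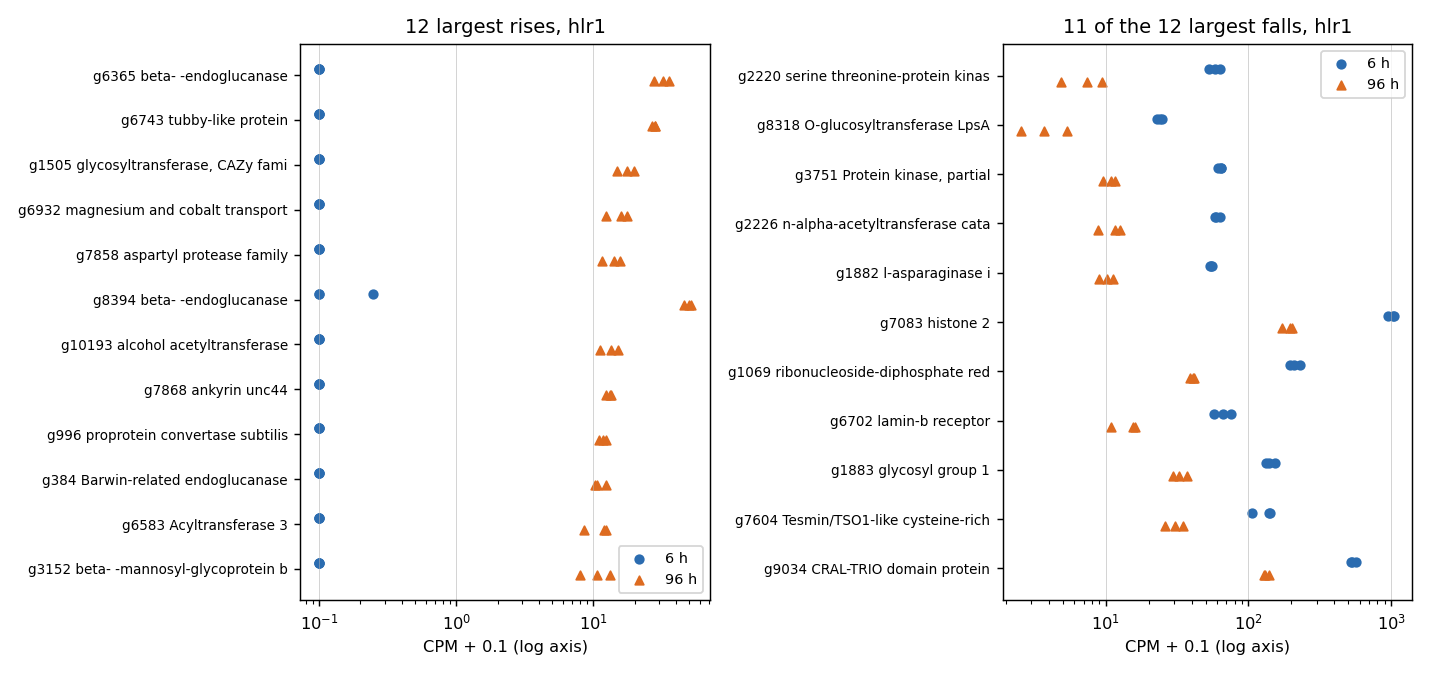
Levels in each *hlr1* library at 6 h (blue circles) and 96 h (orange triangles), as CPM plus 0.1 on a log axis, for the 12 largest rises (left) and 11 of the 12 largest falls (right) with an informative description. On the left, 11 of the genes sit at 0 in every 6 h library and g8394 has 1 read in 1 of them, while on the right every gene keeps a measurable level at 96 h.

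Genes for transcription factors were among the strong rises, and most of these were of the MYB type, a DNA-binding family that in plants and animals controls cell cycle and developmental genes. Of 69 tested transcription factor genes, 11 (15.9%) were called higher and 2 (2.90%) lower, against 9.53% and 4.3% of all genes, around a list median of 0.06. The gene g10347, described as a MYB 3R-1-like protein, was at 0.62, 0.73 and 0.30 CPM at 6 h and at 64.8, 58.1 and 73.1 CPM at 96 h (log2 fold change 6.84, SE 0.25, adjusted p = 2.08e-18). The MYB genes g4052, g8931, g99 and g950 likewise left levels of at most 2.11 CPM at 6 h for at least 22.4 CPM at 96 h. The MYB gene g1664, already at 41.0 to 43.1 CPM at 6 h, rose by 2.00 on the log2 scale, and g5012, described as metal-responsive factor MTF-1, by 4.51. The heat shock transcription factor gene g8128 went the other way, from 60.3, 57.0 and 49.9 to 16.8, 17.1 and 12.97 CPM (log2 fold change -1.84, adjusted p = 2.87e-11).

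The gene with the most reads among the strong rises, g2813 (scaffold 81:57816-59427), has no description. It was at 28.2, 34.7 and 29.3 CPM at 6 h and at 4936, 4355 and 4527 CPM at 96 h, a log2 fold change of 7.23 (SE 0.094, adjusted p = 8.14e-28). The gene g9904 went from 3.27, 0.44 and 2.11 to 664, 649 and 617 CPM (log2 fold change 8.38, adjusted p = 2.24e-24). Its best-match description is a ribosomal L18e/L15P domain protein, but the domain listed for it is Fringe, so the name is uncertain. By description it was 1 of 2 called genes in the list of 122 ribosomal proteins, whose median was -0.12. The other (g3154) has the same description. The R-SNARE gene g3340 of the VAMP72 family, which in plants acts in secretion, rose from 2.03, 0.88 and 1.21 to 129, 115 and 122 CPM, by 6.47 on the log2 scale. In the vesicle trafficking list around it, 9 of 119 genes were called higher and 5 lower, with a median of -0.24.

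Many genes of DNA replication and cell division were called lower. In the cell cycle and DNA replication list, 28 of 136 tested genes were called lower and 1 higher, against 4.3% and 9.53% of all genes, and the list median was -0.38. The sliding clamp gene *PCNA* (g8523), which tethers DNA polymerases to the template, was at 493, 501 and 490.0 CPM at 6 h and at 125, 132 and 128 CPM at 96 h. The 2 times were well separated, and the log2 fold change was -1.94 (SE 0.068, adjusted p = 1.04e-18). The small subunit of ribonucleotide reductase (g1069), the enzyme that makes deoxynucleotides, fell from 194, 229 and 210 to 39.0, 41.6 and 41.1 CPM (-2.38, adjusted p = 4.88e-18). Its large subunit (g7568) fell by 1.51 on the log2 scale.

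Other components of the replication fork fell as well, each without overlap between times, although most of these calls were lost with all 30 libraries in 1 fit, where the adjusted p was 0.142 for g1069 and 0.298 for MCM3. The log2 fold change was -1.79 for MCM3 (g841), a subunit of the replicative helicase, and -1.61, -1.26 and -1.22 for the catalytic subunits of DNA polymerases ε (g7602), δ (g3418) and α (g5275). Cyclin E (g7290), which in animals drives entry into S phase, fell by 1.46. The kinase gene g2568, described as the inhibitory kinase of CDC2 that holds cells before mitosis, fell by 2.01. The Ndc80 complex links chromosomes to spindle microtubules, and its genes fell together, with -1.43 for Ndc80 (g3662), -1.45 for Nuf2 (g2012) and -1.28 for Spc24 (g7696). Spc25 (g1135) stood at -1.004, just past the threshold, and its call was lost without 6 h replicate b (-0.94), without 6 h replicate c (-0.9994) and without 96 h replicate b (-0.98). The calls of the cohesin subunit SA-1 (g5563, -1.02) and of g1638 (-1.02), described as a cell division topological specificity factor, also rested on single libraries. They became -0.97 without 6 h replicate a for g5563, and -0.96 without 6 h replicate c and -0.89 without 96 h replicate b for g1638.

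The largest fall of a described gene was that of g2220, annotated as Polo-like kinase 4, which in animals starts centriole duplication. It went from 57.8, 52.4 and 63.4 to 4.74, 7.24 and 9.37 CPM (log2 fold change -3.01, SE 0.18, adjusted p = 9.08e-14). The histone gene g7083 fell from 1033, 1043 and 951 to 195, 171 and 203 CPM, by 2.41 on the log2 scale. It was the only 1 of 8 histone genes to be called (12.5%, where 4.3% of all genes were called lower). Histone H3 (g7513) stood at -0.74. Msh6 (g5143), which acts in mismatch repair, fell by 1.57 on the log2 scale. In its list of 48 photolyase, photoreceptor and repair genes, 3 (6.25%) were called higher and 2 (4.17%) lower, against 9.53% and 4.3% of all genes.

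In the list of tubulin, actin, motor and flagellar genes, 14 of 92 (15.2%) were called lower, against 4.3% of all genes, and 11 (12.0%) higher, near the 9.53% of all genes. The list median was -0.25. α-Tubulin (g5608), the subunit of all microtubules, went from 3273, 3526 and 3202 to 1233, 1249 and 1324 CPM (log2 fold change -1.39, adjusted p = 3.78e-16), and the β-tubulin gene g8842 fell by 1.55. The kinesin genes g8539, g756 (KIF11, a spindle motor in animals) and g3512 fell by 1.99, 1.81 and 1.65. The rises included axonemal dynein assembly factor 1 (g8525, 0.78, 1.90 and 2.72 CPM at 6 h and 17.1, 17.0 and 12.4 CPM at 96 h), IFT172 (g7837, log2 fold change 2.16) and a flagellar outer arm dynein heavy chain (g1045, 1.96), all named after flagellar proteins of other organisms. At 96 h the last pair of genes remained at 4.61 to 8.07 CPM. The list was made by text match and also holds g6508, described as a chromatin remodelling factor, among the genes called higher.

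The medians of these lists moved with the reference. Relative to actin, the cell cycle list had a median of -0.07 with 11 genes called lower and 2 higher, and the tubulin list turned to 0.05 with 9 lower and 14 higher. The wall list stayed at 1.11 with 17 higher and 0 lower.

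Heat shock protein 90 (g7742), the chaperone of kinases and transcription factors, fell from 1418, 1630 and 1460 to 480, 460 and 505 CPM, with a log2 fold change of -1.64 (SE 0.069, adjusted p = 5.71e-17). The 96 h libraries were all below the lowest 6 h library. A histone chaperone (g6784) and a DnaJ domain protein (g467) fell by 1.30 and 1.07, and the DnaJ gene g2091 rose by 1.12. Those were the only called genes of 91 in the chaperone list, whose median was 0.07. They made up 1.10% of the list in the higher and 3.30% in the lower direction, against 9.53% and 4.3% of all genes. Relative to actin the balance turned, with 6 called higher and 1 lower and a median of 0.38, and the calls of g6784 (-0.9996) and g467 (-0.77) were lost.

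The main antenna changed by less than 2-fold. Of 21 light-harvesting genes, 1 (4.76%) was called higher and 0 lower, against 9.53% and 4.3% of all genes. The list median was -0.17 (0.13 relative to actin). VCP1 (g2383), the main antenna gene, was at 11360, 11300 and 11420 CPM at 6 h and at 7386, 8494 and 7306 CPM at 96 h, without overlap (log2 fold change -0.56, SE 0.064, adjusted p = 3.44e-08). The light-harvesting genes g6113 and g9713 stood at -0.75 and -0.72, also without overlap, and g903, g1546, g5629 and g6882 at -0.13, -0.07, -0.15 and -0.17, with overlapping times. For these last 4 genes the sign turned relative to actin. The 1 gene of the list called was g9917, which went from 653, 684 and 569 to 1654, 1460 and 1410 CPM (log2 fold change 1.25, SE 0.075, adjusted p = 1.05e-13). It is described as a light-harvesting complex protein, but the domain listed for it is Fasciclin. The domain listed for VCP1, g6113 and g9713 is the chlorophyll-binding one. A listed domain alone does not decide the name, since the domain listed for *HLR1*, a light-harvesting gene, is ArfGap. Whether g9917 is an antenna gene was not tested.

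No photosystem or electron carrier gene of 30 was called (median -0.01), nor was any of 20 genes of chlorophyll and heme synthesis (median 0.03). Among all genes 9.53% were called higher and 4.3% lower. The oxygen-evolving enhancer gene g2182 was at 4940, 4811 and 5361 CPM at 6 h and at 4958, 5429 and 4887 CPM at 96 h, a log2 fold change of 0.02 (SE 0.064, adjusted p = 0.859). The Calvin cycle genes, which fix carbon dioxide, lay mostly above 0, with a median of 0.33 over 24 genes, and 18 of them had an adjusted p under 0.05 in the higher direction where 27.9% of all genes did. None passed the 2-fold threshold, but 6 did relative to actin, where the median was 0.64, and 1 did with library totals. Phosphoribulokinase (g3073), which regenerates the carbon dioxide acceptor, came closest, with 539.1 ± 21.7 CPM (SD, n = 3) at 6 h and 1076 ± 54.8 CPM at 96 h, without overlap. Its log2 fold change of 0.997 (SE 0.065) passed the threshold in 4 of the 6 fits that left out 1 library, at 1.02 without 6 h replicate a, at 1.004 without 6 h replicate b or 96 h replicate a, and at 1.02 without 96 h replicate c. It did not pass without 6 h replicate c (0.96) or 96 h replicate b (0.96).

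Of 33 tested genes of fatty acid synthesis, 8 (24.2%) were called higher, where 9.53% of all genes were, and 0 lower, where 4.3% of all genes were. The list median was 0.44. Acetyl-CoA carboxylase (g7511), which makes the malonyl-CoA building block, went from 309, 324 and 298 to 686, 763 and 681 CPM, by 1.19 on the log2 scale (adjusted p = 4.04e-14). Acyl carrier protein (g8791) rose by 1.27, 3-oxoacyl-ACP reductase (g5746) by 1.24, peroxisomal trans-2-enoyl-CoA reductase (g8225) by 1.42 and a fatty acid elongase (g5643) by 2.07. No 6 h library of these genes reached a 96 h library.

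Genes for diacylglycerol acyltransferases, which finish triacylglycerol, were called in both directions. A type 2 diacylglycerol acyltransferase (g2042) fell from 239, 248 and 226 to 91.6, 85.4 and 85.7 CPM (log2 fold change -1.44, SE 0.076, adjusted p = 9.18e-15). The type 1 gene (g7935) rose from 0.16, 0 and 0.60 to 14.7, 15.3 and 13.4 CPM (adjusted p = 6.73e-11). Both are members of a list of 44 glycerolipid genes in which 2 were called in each direction, with a median of -0.08. Of the others called, g5834, of phosphatidylinositol synthesis, was at -1.02 and its call was lost without 6 h replicate b (-0.98). Among 56 lipase and fatty acid oxidation genes 4 were called higher and 1 lower, with a median of -0.07. The lower gene, lipase g5277 (-1.01), lost its call without 6 h replicate c (-0.89), 96 h replicate a (-0.84) or 96 h replicate b (-0.91).

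Few genes of central carbon metabolism were called. Pyruvate kinase (g8432) and enolase (g10003), the last steps of glycolysis, rose by 1.31 and 1.17 on the log2 scale, from 156 to 176 and 254 to 287 CPM at 6 h to 399 to 416 and 590 to 615 CPM at 96 h. With g7490 (1.38) they were the 3 called genes of 37, around a median of 0.12. The gene g7490 is described as a pyruvate dehydrogenase kinase, but the domain listed for it is Ribosomal_L4, so its name is uncertain. Its call was lost in edgeR's test with all 30 libraries in 1 fit (adjusted p = 0.889). Alternative oxidase (g363), which lets mitochondrial electrons bypass part of the respiratory chain, went from 92.0, 93.9 and 90.7 to 252, 255 and 262 CPM (1.48, adjusted p = 2.12e-15). It was 1 of 2 called genes of 65 in the respiration list (median -0.05). HMG-CoA synthase (g249), the entry enzyme of the mevalonate route to isoprenoids, had 3 reads in all 6 h libraries and 69.4, 76.9 and 84.3 CPM at 96 h, a ratio of 511 with a counting interval of 174 to 2480. In the carotenoid and isoprenoid list 2 of 32 genes were called higher, with a median of 0.20. The other one, the epoxycarotenoid cleavage gene g6325 (1.20), lost its call without 6 h replicate c (0.97).

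Of 22 genes of nitrogen uptake and assimilation, 5 (22.7%) were called higher, against 9.53% of all genes, and 0 lower, against 4.3%. The nitrate transporter g7989 (scaffold 271:268111-270893) was at 38.9, 37.8 and 46.5 CPM at 6 h and at 96.2, 207 and 109 CPM at 96 h (log2 fold change 1.74, SE 0.18, adjusted p = 5.62e-09). Its neighbour, the nitrate reductase gene g7988 (scaffold 271:263203-267456, on the other strand), went from 71.6, 65.2 and 72.9 to 123, 201 and 136 CPM (1.13), and the nitrite reductase gene g3438 from 321, 327 and 311 to 553, 847 and 610 CPM (1.07). In each of these genes, and in the urea symporter g6410 (1.26), 96 h replicate b was the highest library, and all 96 h libraries lay above all 6 h libraries. Without 96 h replicate b the calls of g7988 (0.89) and g3438 (0.86) were lost. The call of the permease g9530 (1.01) was lost without 6 h replicate a (0.92), 6 h replicate b (0.92) or 96 h replicate b (0.97). The list median was 0.12.

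The lists of stress and transport genes were below the 9.53% of all genes called higher, so only single genes are given. In the lower direction, where 4.3% of all genes were called, ROS scavenging (4.35%) and phosphate uptake (5.26%, 1 gene of 19) lay slightly above. Among 92 genes of ROS scavenging and thiol redox, 5 (5.43%) were called higher and 4 (4.35%) lower, with a median of -0.03. The rises included superoxide dismutase (g7580, 1.24), peroxiredoxin (g2619, 1.22) and glutathione *S*-transferase (g3208, 1.96), and the falls a thioredoxin domain protein (g4630) that went from 569, 651 and 553 to 223, 191 and 218 CPM. Of 248 transporter genes 23 (9.27%) were called higher and 6 (2.42%) lower. Among them were g1375 (5.44) and g773 (3.04), described as phosphoinositol transporters, and a sulfate transporter (g3713, -1.45). The domain listed for g1375 and g773 is CRAL_TRIO, so their names are uncertain. The blue light receptor gene *aureochrome1-like* (g1656) rose from 24.1, 26.9 and 31.5 to 64.3, 55.6 and 60.5 CPM (1.13). Ribosome biogenesis genes had a median of 0.38 with 1 of 63 called higher. At any fold, 35 of the 63 had an adjusted p under 0.05 in the higher direction, where 27.9% of all genes did. This list thus lay above all genes in small changes, though not in calls. Of the remaining lists, tRNA synthetases and translation factors (1 higher and 0 lower of 111), ubiquitin and proteasome (7 and 2 of 195), amino acid synthesis (4 and 0 of 69) and phosphate uptake (1 and 1 of 19) had few calls, and autophagy (12 genes) and carbonic anhydrase (3 genes) had none. The shares called higher in the vesicle trafficking, glycerolipid, lipase, glycolysis, respiration, isoprenoid and ribosomal protein lists were all below the 9.53% of all genes. Lower calls made up 4.20% of the vesicle trafficking, 4.5% of the glycerolipid and 1.79% of the lipase genes, against 4.3% of all genes. The glycolysis, respiration, isoprenoid and ribosomal protein lists had no lower calls.

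Signs of other RNA were read beside these results. Both genes described as antisense to ribosomal RNA were called higher, and g7618 stood at 90.5, 162 and 208 CPM at 6 h against 938, 467 and 557 CPM at 96 h. The 1 transposase-like gene (g187) fell by 1.53 on the log2 scale. Their part in the other results was not tested.

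The levels at 6 h and 96 h are set beside the other times on the scale of all 30 libraries, where no test was made. The *hlr1* libraries of the dark and of 1 h had reads in 7184 to 9802 genes, fewer than those of 6 h and 96 h, so a level of 0 there is a less firm measurement. *PCNA* (g8523) in *hlr1* had a mean of 108 CPM in the dark, 486 at 1 h, 414 at 6 h, 109 at 96 h and 90.4 at 144 h, so the 6 h level was a high one within the course. Heat shock protein 90 (g7742) was at 147, 416, 1259, 407 and 315.5 CPM at the same times, and g2220 had no read in the dark and at 1 h before its 48.5 CPM at 6 h. Other genes had their lowest mean at 6 h. Cellulose synthase g6926 had means of 1332, 1133, 5.60, 185 and 585 CPM, and HMG-CoA synthase g249 had 171, 83.3, 0.13, 64.9 and 180 CPM. Nitrite reductase g3438 also passed through its lowest mean at 6 h, with 3771, 1737, 268, 566 and 2322 CPM. The MYB gene g10347, by contrast, had means of 3.52 and 10.2 CPM in the dark and at 1 h and of 55.2 and 61.1 CPM at 96 and 144 h.

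**Figure D3:**
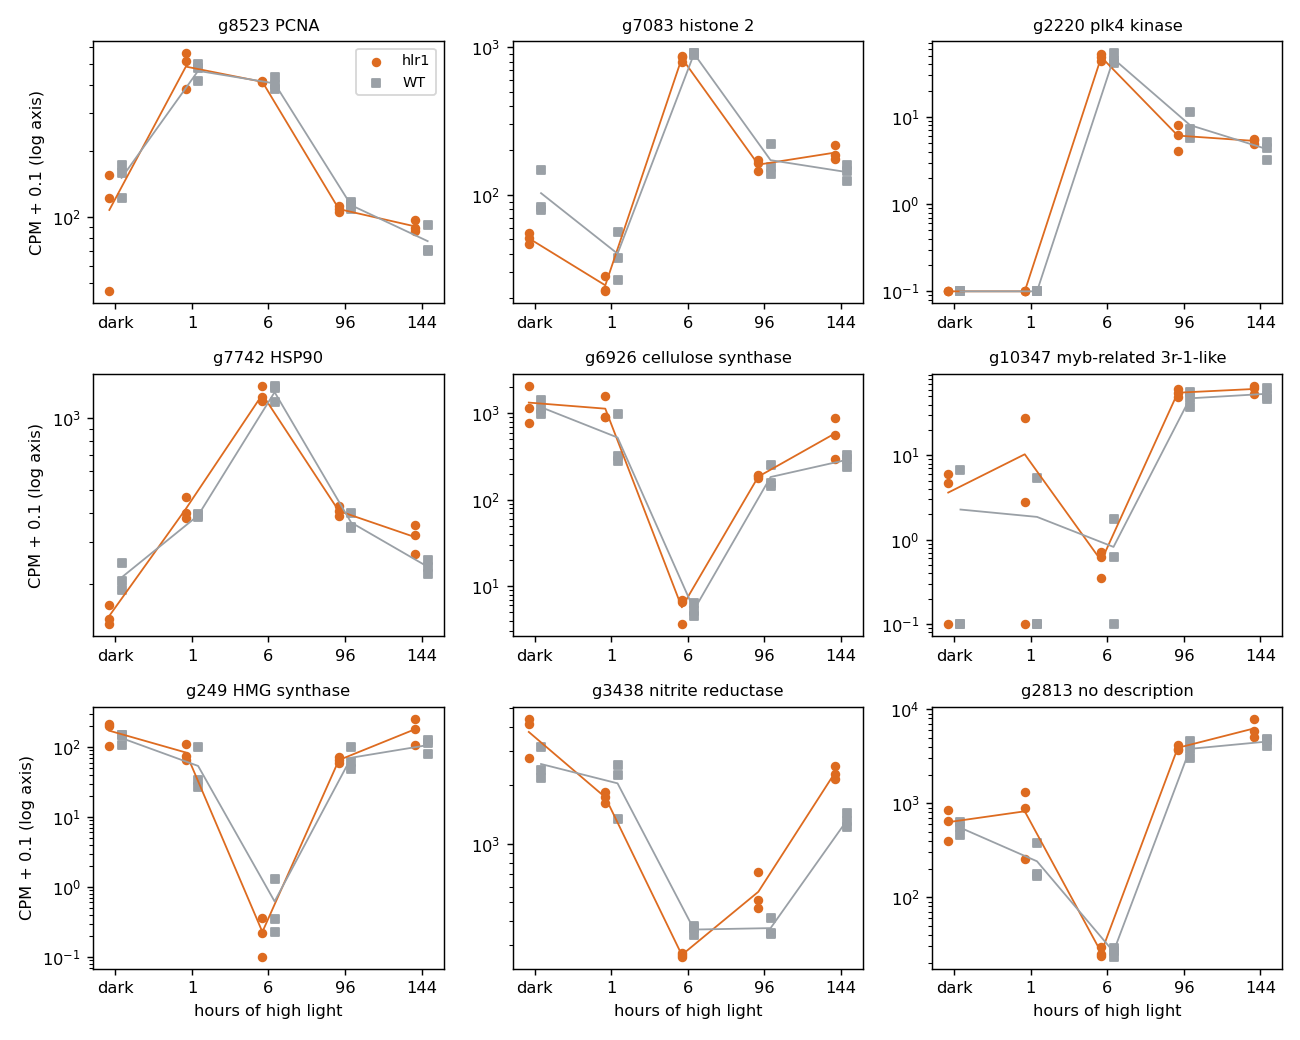
Levels of 9 genes in every library of *hlr1* (orange circles) and WT (grey squares) in the dark and at 1, 6, 96 and 144 h of high light, as CPM plus 0.1 on a log axis, scaled over all 30 libraries. Lines join the means. *PCNA*, histone 2, g2220 and heat shock protein 90 lie high at 6 h in *hlr1*, while cellulose synthase g6926, HMG-CoA synthase, nitrite reductase and g2813 lie at their lowest.

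The strongly rising genes were followed as a set through all libraries. The set was defined by the comparison of 6 h and 96 h and is only described. The 564 genes over 4-fold higher had a median level of 0.66 CPM at 6 h and 19.3 CPM at 96 h, and 321 of them were under 1 CPM at 6 h. Together they took 0.168 to 0.174% of all counts in the *hlr1* libraries at 6 h and 2.92 to 3.27% at 96 h. In libraries that did not choose them, their share was 2.81 to 4.51% in the dark, 2.17 to 4.3% at 1 h and 3.8 to 7.63% at 144 h in *hlr1*. In WT it was 0.184 to 0.206% at 6 h and 2.5 to 3.94% at 96 h. The share does not show that the whole set was high in the dark and at 1 h. In *hlr1*, 237 to 490 of the 564 genes had a read in the dark, 281 to 471 at 1 h and 418 to 440 at 6 h. The dark library with 237 had reads in only 7184 genes in all. All 564 had a read at 96 h, a time that chose them. On the scale of all 30 libraries, the median of these genes per library was 0, 4.84 and 6.16 CPM in the dark. It was 2.23, 0 and 3.22 CPM at 1 h and 0.51 to 0.65 CPM at 6 h. At 96 h it was 15.7 to 17.2 CPM. Fewer of these genes carried a description than of all tested genes, 44.5% against 63.93%.

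**Figure D4:**
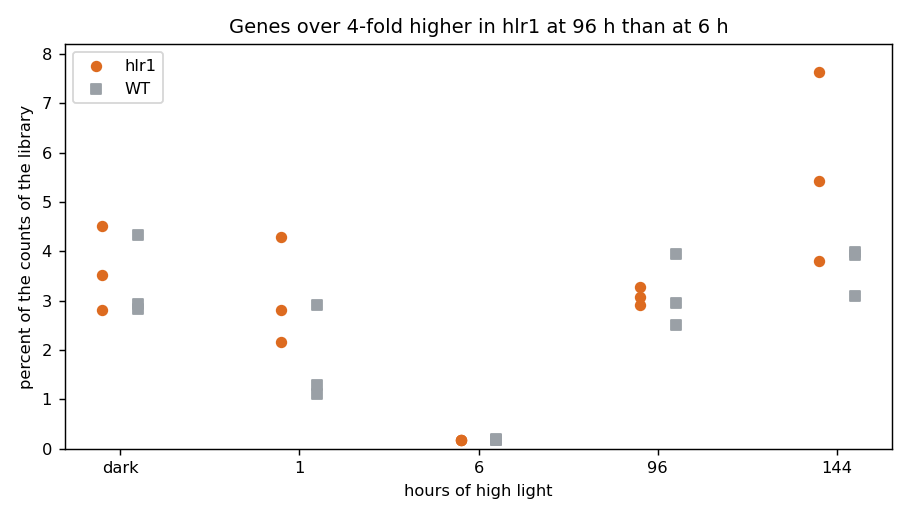
Percent of the counts of each library (vertical axis) that fell on the 564 genes called over 4-fold higher in *hlr1* at 96 h than at 6 h, for *hlr1* (orange circles) and WT (grey squares) by hours of high light. The 3 *hlr1* points at 6 h lie at 0.168 to 0.174%, and no library of another time is below 1.1%.

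WT over the same interval was used to ask where *hlr1* differed. In WT 900 genes were called higher (9.22%) and 386 lower (3.95%) of 9766. Of the genes called higher in *hlr1*, 765 were called higher in WT, which is 82.1% of the *hlr1* and 85% of the WT calls. Of those called lower, 305 were shared, 72.6% and 79% of the 2 lists, and 0 genes were called in opposite directions. The wall list had 16 higher calls in WT, 15 of them shared, and the cell cycle list 23 lower calls, 22 of them shared. For the nitrogen list WT had 0 calls and for fatty acid synthesis 3 higher, all shared, but these counts do not test a difference.

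The difference between the changes of the 2 strains, tested as an interaction over 12 libraries, was called for 16 of 9883 genes (0.162%), while 968 genes (9.79%) had an unadjusted p under 0.05. *HLR1* had the lowest adjusted p, with a difference of 1.32 on the log2 scale (SE 0.088, adjusted p = 6.67e-09). The MYB gene g950 rose from 1.41, 0.73 and 2.12 to 66.3, 59.9 and 72.3 CPM in *hlr1* and from 22.7, 22.9 and 19.2 to 88.1, 130 and 81.5 CPM in WT, a difference of 3.33 (adjusted p = 6.49e-06). Every *hlr1* library was below every WT library at both times. The endo-β-*N*-acetylglucosaminidase gene g9910, whose enzyme class removes *N*-glycans, went from 10.3, 9.25 and 9.69 to 27.4, 32.4 and 41.7 CPM in *hlr1* and stayed between 67.1 and 90.3 CPM in WT (difference 1.60, adjusted p = 0.000217).

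A further gene, g3378, described as a heterogeneous nuclear ribonucleoprotein, an RNA-binding protein, did the reverse. It was at 63.1, 57.7 and 61.2 CPM at 6 h and 48.3, 50.4 and 62.4 CPM at 96 h in *hlr1*, and rose from 15.0, 18.0 and 20.7 to 60.4, 61.0 and 59.3 CPM in WT (difference -1.92, adjusted p = 4.45e-06). Nitrite reductase g3438 stood at 408, 441 and 453 CPM at 6 h and 491, 406 and 412 CPM at 96 h in WT, so that its rise in *hlr1* differed by 1.06 (adjusted p = 0.0015). Without *hlr1* 96 h replicate b that difference was 0.86 and was no longer called. The differences of the nitrate transporter g7989 (1.33) and the urea symporter g6410 (1.02) both had an adjusted p of 0.049, and were 0.91 and 0.80 without that library, with no call. When each of the 12 libraries was left out in turn, either difference was called in 3 of the 12 fits. With library totals neither was called (g7989 1.28, adjusted p = 0.0532; g6410 0.98, adjusted p = 0.0556), nor was g6410 with the replicate block (0.9963) or g7989 with DESeq2 (adjusted p = 0.111). For nitrate reductase g7988 the difference was 0.78 (adjusted p = 0.128). VCP1 differed by 0.62 (adjusted p = 0.00413), below the 2-fold threshold, as it fell by 1.19 on the log2 scale in WT.

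**Figure D5:**
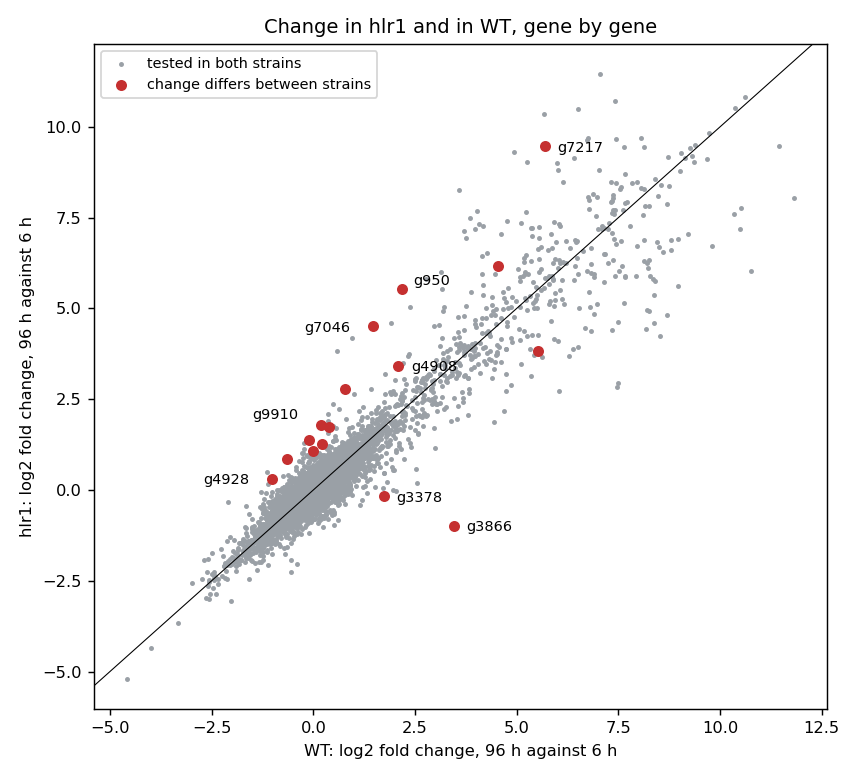
Log2 fold change at 96 h against 6 h in *hlr1* (vertical axis) against WT (horizontal axis) for genes tested in both strains. Red points are the 16 genes whose change differed between strains, some of them named, and the line marks equal change. Most genes lie along the line, g950 and *HLR1* (g4928) lie above it and g3378 and g3866 below it. Fitted values of genes at or near 0 counts scatter widely.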

How the data were processed

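mRNA of WT and *hlr1* was sequenced on a HiSeq instrument by the study. Per the labels, reads were mapped with TopHat2 2.0.12 and ribosomal and transfer RNA were left out. The genome build, the counting tool and its strand setting were not given in the sources used here, so overlapping sense and antisense reads could not be told apart, although none of the genes named by rule overlaps another gene's span. The authors deposited raw read counts per gene and library, 1 table per time, with normalized means, fold changes and p-values that were not used. The 6 libraries compared held 6317835 to 6872637 counts.

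The counts of both times were joined by gene number, filtered (filterByExpr at a minimum of 10 counts) and TMM-scaled. The quasi-likelihood test of edgeR 4.0.16 (limma 3.58.1, R 4.3.3) was run with Benjamini-Hochberg adjustment. WT was fitted alike, and the interaction over 12 libraries. The steps were tested on simulated counts. Genes with 0 counts at 6 h were given a lower bound of fold from 3 counts over the group, and ratios with 1 to 3 counts an exact 95% interval.

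The letters a, b and c were not used as pairs, because the deviations of same-lettered libraries from their group means correlated at 0.0076, -0.0030 and 0.046. Alternatives were no filter, a minimum of 100 counts, library totals, DESeq2 1.42.0, a replicate block, all 30 libraries in 1 fit, a 4-fold threshold, a prior count of 10, actin as reference, and each library left out in turn.

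The gene lists were made by text match of the authors' descriptions. The comparison and the lists were chosen with earlier results of these data known, and the patterns of the lists were narrowed on the descriptions before fold changes were computed. Genes named by rule are *HLR1* and actin, the 12 largest rises and 12 largest falls among called, described genes of at least 10 CPM whose times do not overlap, up to 4 called members per list, light-harvesting genes that the study names, the 5 highest levels at each time and up to 8 genes with a strain difference. A gene that this rule names among the falls is not reported here. The following genes were added once their values had been seen: g6926, g2166, g3258, g4066, g5048 and g6674 of the wall list, the polymerases, MCM3, cyclin E, kinetochore, cohesin and g7568 genes of the cell cycle list, g8128, g1664, g5012, g8842, g3512, g7513, g7511, g3073, g7580, g2619, g7837, g1045, g1638, g9530, g3713, g3154, g6508 and the undescribed genes g2104, g5911, g3439, g3866, g7217 and g8419.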

Additional observations from a re-analysis of the deposited data

Results flagged for a closer look

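The change from 6 h to 96 h differed between *hlr1* and WT by the interaction test in 16 genes, each given here as the log2 fold change in *hlr1* minus that in WT. Of these, 7 were called whichever of the 12 libraries was left out. They were *HLR1* (g4928, 1.32), the ribonucleoprotein gene g3378 (-1.92), the MYB gene g950 (3.33), the glycosidase gene g9910 (1.60) and the undescribed genes g5911 (1.49), g3439 (1.45) and g2104 (1.61). The gene g3439 has the number next to nitrite reductase g3438 and stood at 36.1, 56.4 and 40.0 CPM at 6 h and at 88.5, 142 and 113 CPM at 96 h in *hlr1*, where 96 h replicate b was again the highest.

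The other differences lost their call when certain libraries were left out. Nitrite reductase g3438 (1.06) lost its call without *hlr1* 96 h replicate b (0.86). The protein kinase gene g4908 (1.32) lost it without *hlr1* 6 h replicate a (1.32, adjusted p = 0.0508), *hlr1* 6 h replicate b (1.19) or WT 6 h replicate b (1.21). The undescribed gene g8419 (-1.72) lost it without *hlr1* 6 h replicate a (-1.47), WT 6 h replicate a (-1.46), *hlr1* 96 h replicate a (-1.71) or *hlr1* 96 h replicate b (-1.64). The uDENN domain gene g4349 (1.98) was called in 4 of the 12 such fits, the nitrate transporter g7989 (1.33), the urea symporter g6410 (1.02) and the undescribed gene g7217 (3.76) in 3 each, g3866 (-4.46) in 2 and the β-glucosidase gene g7046 (3.03) in 1. The differences kept their direction in all of these fits, at 1.72 to 2.61 for g4349, 0.91 to 1.53 for g7989, 0.80 to 1.17 for g6410, 3.26 to 6.43 for g7217, -5.98 to -3.89 for g3866 and 2.50 to 4.53 for g7046. Of these, g3866 was at most 3.53 CPM in all 12 libraries, and g7046 and g7217 were at most 0.59 CPM in every *hlr1* library of 6 h.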

How the results depend on the processing

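The *hlr1* counts of 932 higher and 420 lower became 614 higher with a minimum of 100 counts, 485 and 52 with all 30 libraries in 1 fit, and 564 and 42 at a 4-fold threshold. WT had 487 and 52 with all 30 libraries and 547 and 44 at 4-fold. The dispersion in the fit of all 30 libraries was larger, with a biological coefficient of variation of 0.50 against 0.083, and 38.6% of the 1352 *hlr1* calls were called in it. DESeq2 called 99.1% of the 1352, and 0 genes changed direction among calls in any alternative. Leaving out 1 library gave 927 to 974 higher and 386 to 447 lower in *hlr1*, and 890 to 951 and 365 to 436 in WT. The 16 strain differences became 10 with a minimum of 100 counts, 25 with DESeq2, 4 at 4-fold, 9 to 22 when 1 library was left out (9 without *hlr1* 6 h replicate a or *hlr1* 96 h replicate b, 10 without WT 6 h replicate b), and 0 with all 30 libraries, where edgeR's quasi-likelihood test gave 43 genes an unadjusted p under 0.05 and the lowest adjusted p was 0.0558. With the replicate block, 931 and 410 genes were called in *hlr1*, 893 and 390 in WT, and 16 strain differences, 13 of them shared. The calls of g3866, g6410 and g7046 were lost there. Not every library correlated best with its own letter. Relative to actin, the log2 fold change of g903 became 0.18, of g1546 0.24, of g5629 0.16, of g6882 0.13 and of g3378 0.13. Leaving out 1 library moved g2182 between -0.033 and 0.062 and g4625 between -0.052 and 0.035. Of the values of named genes under the alternatives, 2048 kept their direction and side of the threshold, 94 lost a call and 12 gained one, and the cause was not tested. Depth limits the fold changes of the 140 rises that start from at most 3 counts.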

Other observations

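Genes over 4-fold higher in *hlr1* at 96 h than at 6 h often lay next to each other. Of the tested neighbours of the 564 genes 28.6% were in the set themselves, where the set is 5.77% of all tested genes, and 229 of the 564 had such a neighbour. Of the tested neighbours of the genes called lower 14.2% were called lower, against 4.3% of all genes, so this was not seen in the rises alone. This was noticed after the values were seen and is a description. In 12 places at least 4 genes with consecutive numbers were all in the set, 73 genes in all. The longest stretches held 11 genes each, g1509 to g1519 (scaffold 26:1470528-1494702) and g9889 to g9899 (scaffold 349:1497-36931), with levels of at most 0.41 and 1.01 CPM at 6 h and up to 34.1 and 56.9 CPM at 96 h. The stretch g9902 to g9908 on scaffold 349 holds g9904, described as an L18e/L15P domain protein, and 4 of the stretches lie on scaffold 295 between 1087649 and 1136685. Among the genes called lower there was 1 such stretch, of 4 genes (g4098 to g4101).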
